A study of Mus musculus with 13 samples.

Results

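Troponin is the calcium switch of striated muscle, and the 6 genes described here encode its fast and its slow subunits. Tnnt3, Tnni2 and Tnnc2 encode the fast skeletal forms of troponin T, I and C, and Tnnt1, Tnni1 and Tnnc1 encode the slow forms, of which Tnnc1 is also the troponin C of the heart. All 6 were found among the 34419 genes counted in gluteal white adipose tissue (WAT) of mice, by gene symbol, and all 6 were among the 17779 that passed the filter on low counts. The summed counts of the fast genes exceeded those of the slow genes in every library, by the least in 29°C replicate 6 with 70 fast and 17 slow counts, and the ratio of fast to slow counts differed between single mice over a 99.1-fold range while its mean on the log2 scale was 5.87 ± 1.54 (SD over 7 mice) at 22°C and at 29°C 5.98 ± 2.38 (SD over 6 mice).

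The tissue was gluteal WAT, a subcutaneous depot, of C57BL/6J mice that carried no transgene or deletion by their labels. The mice were males by the methods of the study. They lived at 22°C (7 mice) or at 29°C (6 mice), the latter being thermoneutral for a mouse, from birth until 13 weeks of age. All of them lost their posterior hair after weaning, and the methods also name single housing with little bedding. Each mouse gave a library of its own. The comparison of the 2 temperatures asks how this fat depot differs between a cool and a thermoneutral environment. The troponins are read here as markers of striated muscle RNA of each fiber class, and the source of their reads was not tested. Total counts were between 22356637 and 25245785 per library and fell into 5 lower ones, all from 22°C, and 8 higher ones, 2 from 22°C and 6 from 29°C. The labelled tissue had its defining markers in every library, since the summed level of 8 adipocyte genes was between 21470 and 33119 CPM (counts scaled to library size) at 22°C and between 27859 and 34795 CPM at 29°C.

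In a sarcomere, troponin sits on the thin filament together with actin and tropomyosin. Troponin C binds calcium, troponin I holds back the contact of actin with myosin, and troponin T ties the complex to tropomyosin. Fast-twitch and slow-twitch fibers use separate genes for each subunit, so the transcripts serve as markers of fiber type, and striated troponins are not markers of adipocytes. In these bulk libraries, fewer muscle cells in a sample and less RNA per muscle cell cannot be told apart.

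Start regions were at hand for 4 of the 6 genes, in the RefSeq table for build GRCm38.p6, and all 4 are shown. None was at hand for Tnnt3 and Tnni2, and how the motifs bear on the troponin levels was not tested. Each line gives the 250 bases before the listed start, read 5′ to 3′ on the strand of the gene, with motif matches in capitals. For Tnni1, which has 2 listed starts, the upstream one is shown.
Tnnt1, chr7:4515976-4516225, minus strand: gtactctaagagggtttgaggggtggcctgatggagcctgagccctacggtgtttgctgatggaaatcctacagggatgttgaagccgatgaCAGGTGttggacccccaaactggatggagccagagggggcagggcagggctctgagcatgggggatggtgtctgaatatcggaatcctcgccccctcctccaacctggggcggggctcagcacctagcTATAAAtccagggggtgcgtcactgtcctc
Tnni1, chr1:135799171-135799420, plus strand: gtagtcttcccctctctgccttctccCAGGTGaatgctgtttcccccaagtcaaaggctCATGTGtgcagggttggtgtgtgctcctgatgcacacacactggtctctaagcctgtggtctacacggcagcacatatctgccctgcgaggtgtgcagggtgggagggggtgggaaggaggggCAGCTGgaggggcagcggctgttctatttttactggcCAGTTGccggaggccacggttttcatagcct
Tnnc1, chr14:31208062-31208311, plus strand: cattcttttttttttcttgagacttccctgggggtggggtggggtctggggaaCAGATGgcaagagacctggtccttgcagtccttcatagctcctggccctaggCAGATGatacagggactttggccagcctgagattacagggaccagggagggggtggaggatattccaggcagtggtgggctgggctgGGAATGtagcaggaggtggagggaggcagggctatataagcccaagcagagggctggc
Tnnc2, chr2:164779735-164779984, minus strand: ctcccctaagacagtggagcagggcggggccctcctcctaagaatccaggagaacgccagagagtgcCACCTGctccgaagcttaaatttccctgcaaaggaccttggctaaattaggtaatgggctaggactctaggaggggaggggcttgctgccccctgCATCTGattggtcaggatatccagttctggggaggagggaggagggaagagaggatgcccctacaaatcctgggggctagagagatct
The motifs searched on both strands were the E-box CANNTG, which muscle regulators of the MyoD family bind, the MCAT motif CATTCC bound by TEAD factors, TATAAA, and the MEF2 and CArG motifs. All 4 windows held an E-box, as did 66.2% of the 32851 windows of this length in the table. The E-box of the form CAGCTG was in the Tnni1 window and in 13% of all windows. The Tnnt1 window held TATAAA, found in 12.4% of all windows, and the Tnnc1 window held the MCAT motif on the other strand, as did 12.6%. No match to the MEF2 or CArG motif was in these 4 windows, against 2.92% and 1.47% of all windows with one. No 2 motif matches shown overlap each other.

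Tnnt3 (ENSMUSG00000061723.19), the fast troponin T, was the most abundant troponin. Its level was lowest at 44.1, median 595 and highest at 5291 CPM at 22°C, and lowest at 0.884, median 95.6 and highest at 528 CPM at 29°C. The levels overlapped between temperatures, although 4 of the 7 mice at 22°C were above every mouse at 29°C and 2 of the 6 mice at 29°C were below every mouse at 22°C. Tnni2 (ENSMUSG00000031097.16), the inhibitory subunit of fast fibers, was between 19.7 and 1781 CPM at 22°C (median 247) and between 0.295 and 213 CPM at 29°C (median 42.7). Tnnc2 (ENSMUSG00000017300.10), the calcium-binding subunit of fast fibers, was between 23.5 and 2224 CPM at 22°C (median 266) and between 1.77 and 279 CPM at 29°C (median 50.9). The same mice were high for all 3 genes. 22°C replicates 7 and 1 stood far above the rest, 22°C replicates 4 and 2 and 29°C replicates 1 and 5 came next, and 29°C replicate 6 was lowest.

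The fast troponins made up 0.00912% to 0.816% of a library's counts in the 22°C group and 0.00028% to 0.105% in the 29°C group. Per kilobase of exon, with exon lengths of the GENCODE M21 annotation, the median level at 22°C was 376 CPM for Tnnt3, 332 CPM for Tnnc2 and 165 CPM for Tnni2. At 29°C these medians were 60.4, 63.6 and 28.5 CPM per kilobase. Tnnt3 and Tnnc2 thus lay close together per length in both groups, and Tnni2 was the lowest of the fast genes in both.

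**Figure D1:**
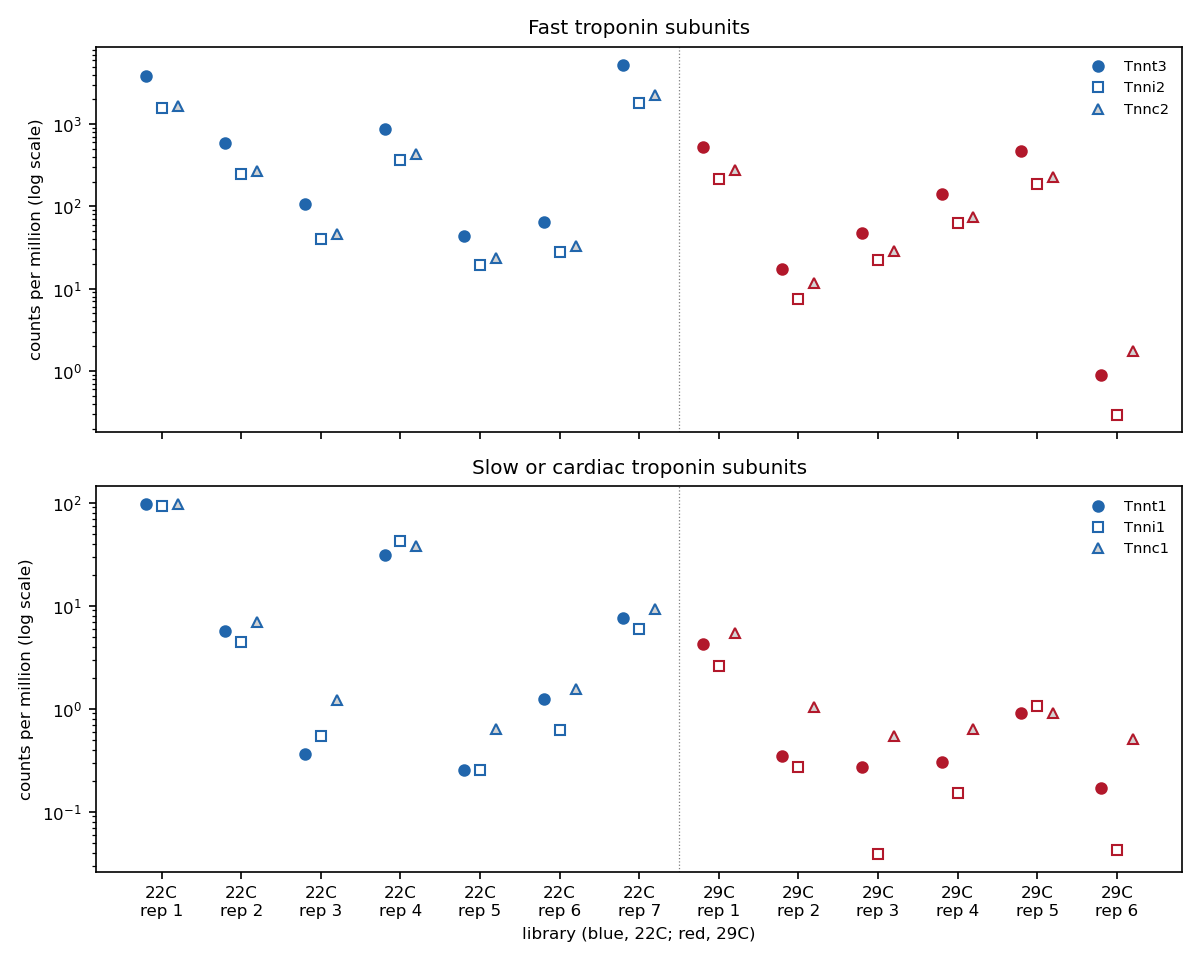
Level of each troponin gene in each library, in CPM on a log axis, with fast subunits above and slow or cardiac subunits below. Each point is 1 mouse (blue, 22°C, n = 7, and red, 29°C, n = 6), and the 3 genes of a class rise and fall together, from 22°C replicate 7 at 5291 CPM of Tnnt3 to 29°C replicate 6 at 0.884 CPM.

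The slow subunits were far lower, and in many mice they rested on few reads. Tnnt1 (ENSMUSG00000064179.14), the slow troponin T, was between 0.254 and 96.9 CPM at 22°C (median 5.66) and between 0.168 and 4.22 CPM at 29°C (median 0.324). Tnni1 (ENSMUSG00000026418.17), the slow troponin I, was between 0.254 and 93.3 CPM at 22°C (median 4.44) and between 0.0387 and 2.61 CPM at 29°C (median 0.21). Tnnc1 (ENSMUSG00000091898.9) was between 0.636 and 97.1 CPM at 22°C (median 7.01) and between 0.505 and 5.45 CPM at 29°C (median 0.77). For each of the 3 genes, 4 of the 7 mice at 22°C were above every mouse at 29°C, and the groups overlapped below that.

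A pair of mice at 22°C carried most of the slow signal. 22°C replicate 1 had 1839 counts of Tnnt1, 1770 of Tnni1 and 1842 of Tnnc1. 22°C replicate 4 had 747, 1018 and 913 counts of the same genes. The mouse with the highest fast level, 22°C replicate 7, had 168, 131 and 205 counts and was the third highest for the slow sum, and 5 of the 6 mice at 29°C had 27 counts or fewer of each slow gene. Per kilobase, the median at 22°C was 6.74 CPM for Tnnc1, 2.57 CPM for Tnnt1 and 1.23 CPM for Tnni1, and at 29°C it was 0.739, 0.147 and 0.0584 CPM.

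The troponins of the heart alone were low, and Tnnt2 but not Tnni3 was close to the limit of detection. Tnnt2, the cardiac troponin T, had no count in 4 of the 13 libraries and at most 51, in 22°C replicate 1, and did not pass the filter on low counts. A count of 0 allows up to 3 counts in a library, an allowance for counting error only. Tnni3, the cardiac troponin I, averaged 1.09 ± 0.515 CPM over the 22°C mice (SD, n = 7) and 1.05 ± 0.307 CPM over the 29°C mice (SD, n = 6), with a fitted log2 fold change of 0.06 (SE 0.29, adjusted p = 0.941, edgeR). Unlike the 6 skeletal genes, Tnni3 stayed within 0.527 to 2.15 CPM in all 13 mice. Tnni3 overlaps the gene Dnaaf3 on the same strand in GENCODE M21, and the part of Dnaaf3 reads in its counts was not tested. Tnnt1 is the direct neighbor of Tnni3 on the chromosome, Tnni2 and Tnnt3 are separated by the single gene Lsp1, and Tnni1 and Tnnt2 by the single gene Lad1.

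None of the 6 troponins passed the comparison of 22°C with 29°C by edgeR's quasi-likelihood test at an adjusted p below 0.1, a threshold that 1.94% of the genes tested passed in either direction and 0.731% passed as higher at 22°C. The fitted log2 fold changes, 22°C relative to 29°C, were 2.93 (SE 1.38) for Tnnt3, 2.82 (SE 1.33) for Tnni2 and 2.69 (SE 1.27) for Tnnc2. Their adjusted p-values were 0.275, 0.277 and 0.278 (edgeR). The slow genes had larger fitted log2 fold changes, of 4.29 (SE 1.38) for Tnnt1, 4.91 (SE 1.49) for Tnni1 and 3.86 (SE 1.20) for Tnnc1. Their adjusted p-values were 0.156, 0.139 and 0.145 (edgeR).

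All 6 fitted differences pointed to 22°C, but no gene separated the 2 groups, whereas 0.495% of the genes tested had every mouse at 22°C above every mouse at 29°C. At an unadjusted p below 0.05, 3 of the 6 passed, namely the slow genes, beside 10.3% of the genes tested that were higher at 22°C by this measure. DESeq2, the tool the study names, called the same 3 slow genes at an adjusted p below 0.1, where it called 5.58% of its genes higher at 22°C. Its adjusted p-values were 0.0136 for Tnnt1, 0.00833 for Tnni1 and 0.011 for Tnnc1, and 0.121, 0.131 and 0.133 for Tnnt3, Tnni2 and Tnnc2. Among the 8 libraries with higher totals, the log2 fold changes were 3.74, 3.47 and 3.45 for Tnnt3, Tnni2 and Tnnc2 and 2.09, 2.23 and 1.83 for Tnnt1, Tnni1 and Tnnc1, with none called (edgeR). The mean log2 level of 12 general skeletal muscle genes in each mouse moved with these values. With that muscle score in the fit the log2 fold changes of Tnnt3, Tnni2 and Tnnc2 were -0.23, -0.25 and -0.42. Those of Tnnt1, Tnni1 and Tnnc1 were 1.06, 1.62 and 0.98, again with none called, where 43 of all genes tested were called (edgeR). The score went with the mean log2 level of the fast genes with Pearson's r = 0.994, so their small values in this fit are no separate test.

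The fast to slow ratio of counts within a library does not depend on library size. A common change in muscle RNA leaves it as it is only if all reads of both classes come from muscle, which was not tested. Summed over the 3 subunits, the ratio was 24.6, 64.7, 90.3, 14.8, 76.3, 37.1 and 408 in 22°C replicates 1 to 7. It was 83.1, 21.9, 116, 256, 312 and 4.12 in 29°C replicates 1 to 6. Each group held low, middle and high ratios, with medians of 64.7 at 22°C and 99.6 at 29°C, and spanned a 27.6-fold range at 22°C and a 75.8-fold range at 29°C. Over the 13 libraries the log2 summed ratio went with the mean log2 level of the fast genes with Pearson's r = 0.505 (Spearman's rho = 0.297). With the mean log2 level of the slow genes r was -0.101.

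Counting error was small against this spread where slow reads were many. The exact 95% interval of the summed ratio was 23.9 to 25.3 in 22°C replicate 1, 14.2 to 15.4 in 22°C replicate 4 and 374 to 446 in 22°C replicate 7. These 3 mice had the highest slow sums and differed in ratio far beyond their intervals, although they shared a temperature. In the mice with few slow reads the intervals were wider, as 76.5 to 186 in 29°C replicate 3 and 2.4 to 7.46 in 29°C replicate 6, where Tnni2 had 7 counts and Tnnc1 12. Without 22°C replicate 7 the range at 22°C was 6.11-fold, and without 29°C replicate 6 the range at 29°C was 14.3-fold.

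**Figure D2:**
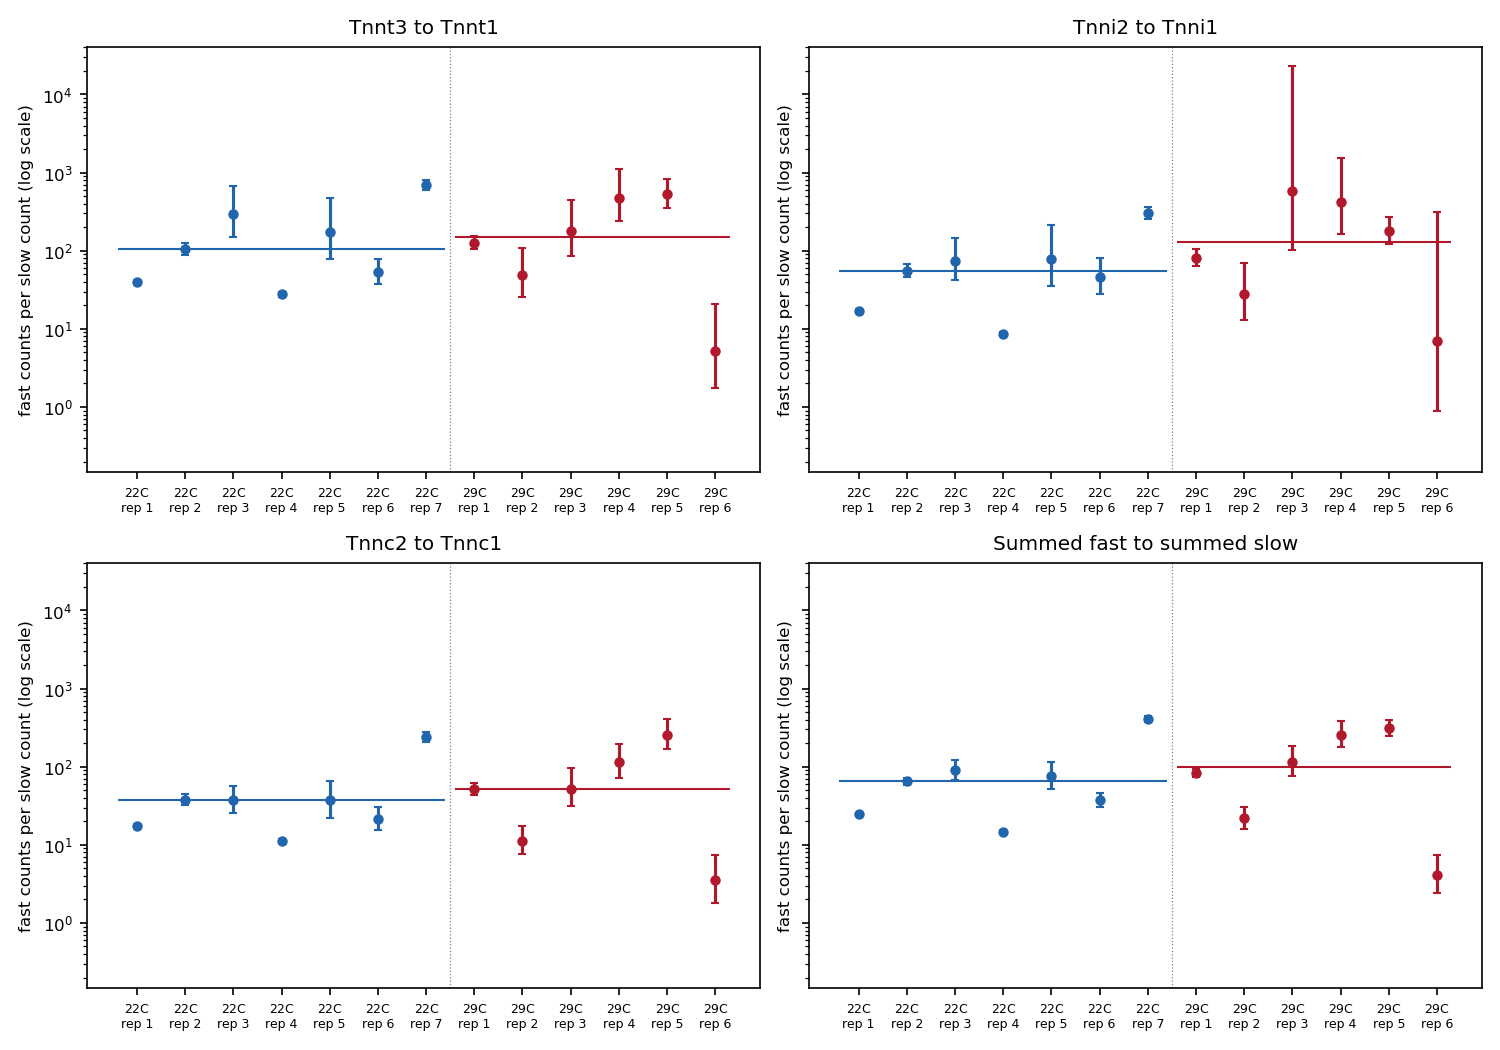
Fast counts per slow count in each library, on a log axis, for the 3 subunit pairs and for their sum, with exact 95% intervals as bars and the group median as a line (blue, 22°C, n = 7, and red, 29°C, n = 6). The summed ratio lies between 14.8 and 408 at 22°C and between 4.12 and 312 at 29°C, and the groups overlap for each pair.

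Pair by pair, the ratio did not pass the test for a difference between temperatures. Tnnt3 to Tnnt1 was between 27.6 and 696 at 22°C (median 105) and between 5.25 and 528 at 29°C (median 151). The mean log2 ratio differed by 0.11 (95% interval -2.33 to 2.69), 22°C minus 29°C, with p = 0.934 in a two-sided exact permutation test over all splits of the 13 mice. Tnni2 to Tnni1 was between 8.64 and 301 at 22°C (median 55.6) and between 7 and 579 at 29°C (median 129), a difference of -0.75 (95% interval -3.22 to 1.80, exact permutation p = 0.516). Tnnc2 to Tnnc1 was between 11.2 and 240 at 22°C (median 37) and between 3.5 and 256 at 29°C (median 51.9), a difference of -0.15 (95% interval -2.42 to 2.12, exact permutation p = 0.89). The p adjusted over the 3 ratios was 0.934 for each. A log2 difference of 1.80 in either direction lay within all 3 intervals, so these mice do not exclude a shift of that size. The sign of the Tnnt3 to Tnnt1 difference turned without any of 22°C replicates 3 and 7 and 29°C replicates 2 and 6, and that of Tnnc2 to Tnnc1 without any of 22°C replicates 1 and 4 and 29°C replicates 4 and 5.

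**Figure D3:**
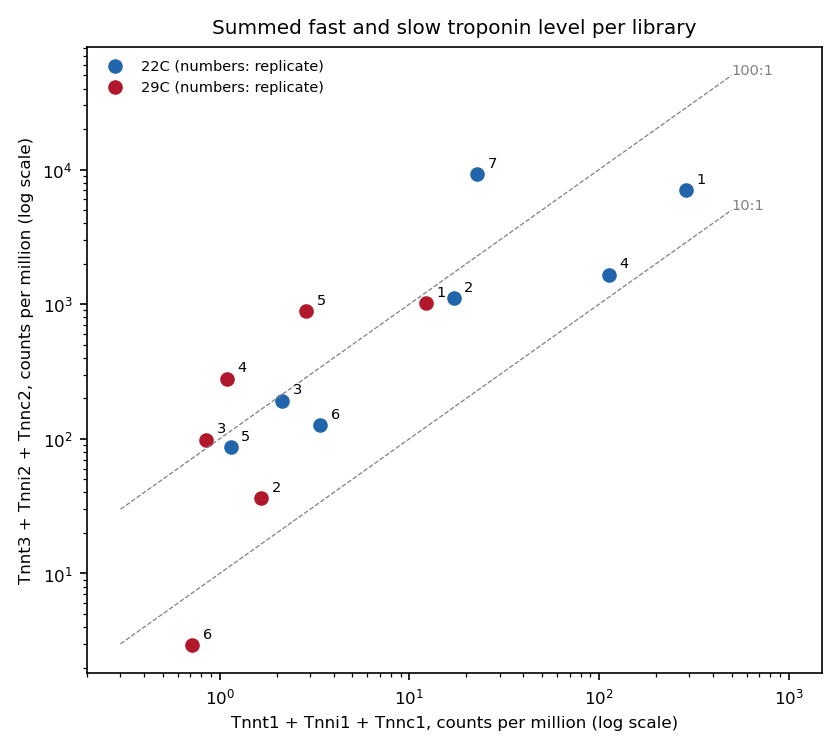
Summed fast against summed slow troponin level of each mouse, in CPM on log axes, with numbers giving the replicate and dashed lines marking 10 and 100 fast per slow count (blue, 22°C, n = 7, and red, 29°C, n = 6). Both sums rise together, but 22°C replicates 1 and 7, with fast sums of 7068 and 9295 CPM, sit at slow sums of 287 and 22.8 CPM.

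Within a class, the 3 subunits kept closer proportions than the classes did between each other. Tnnt3 to Tnni2 was between 2.14 and 3 in all 13 libraries, a 1.4-fold range over mice whose Tnnt3 level ran from 0.884 to 5291 CPM. Tnnt3 to Tnnc2 was between 1.46 and 2.38 in 12 libraries and 0.5 in 29°C replicate 6, and Tnni2 to Tnnc2 between 0.635 and 0.936 in the same 12 and 0.167 in that mouse. Per exon length the median ratio was 0.997 for Tnnt3 to Tnnc2 and 2.28 for Tnnt3 to Tnni2. Among the slow genes, Tnnt1 to Tnnc1 was between 0.296 and 1, Tnnt1 to Tnni1 between 0.667 and 7, and Tnni1 to Tnnc1 between 0.0714 and 1.17. The highest Tnnt1 to Tnni1 and the lowest Tnni1 to Tnnc1 came from 29°C replicate 3, with 7 counts of Tnnt1, 1 of Tnni1 and 14 of Tnnc1. Mice with many slow reads also lay near an end, as 22°C replicate 4, with 1.12 for Tnni1 to Tnnc1 and 0.734 for Tnnt1 to Tnni1.

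Tnnc2 overlaps another gene, which bears on its counts. Ube2c, a ubiquitin-conjugating enzyme of mitosis, lies across it on the other strand, and 47.9% of the 50-base stretches of Tnnc2 transcripts in GENCODE M21 are also in Ube2c transcripts in the opposite orientation. The counts of both genes were almost the same wherever muscle RNA was high, as 31856 for Tnnc2 and 31898 for Ube2c in 22°C replicate 1 and 49179 and 49225 in 22°C replicate 7. In every mouse Ube2c exceeded Tnnc2 by a small number of counts, between 42 and 104 at 22°C and between 107 and 146 at 29°C. In 29°C replicate 6, the mouse whose fast ratios stood apart, Tnnc2 had 42 counts and Ube2c 188. The strand setting of the counting is not given in the sources used here, so reads of Tnnc2 and Ube2c cannot be told apart, and their part in the ratios with Tnnc2 was not tested. Ube2c was named for its position and after its values were seen.

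Other members also overlap genes on the other strand, without such a match in counts. Tnnc1 overlaps Nisch, and Nisch had between 5039 and 10563 counts in every library, including those with 12 to 27 counts of Tnnc1. Tnnt3 overlaps Prr33, with between 175 and 2035 counts of Prr33. Its counts were far below those of Tnnt3 in the muscle-rich mice but highest in the same ones. They were 2035, 1470 and 611 in 22°C replicates 7, 1 and 4, and whether reads were shared was not tested. No 50-base stretch was shared between any 2 of the 6 troponins, and at most 1.16% of those of the members other than Tnnc2 was found in any other gene.

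**Figure D4:**
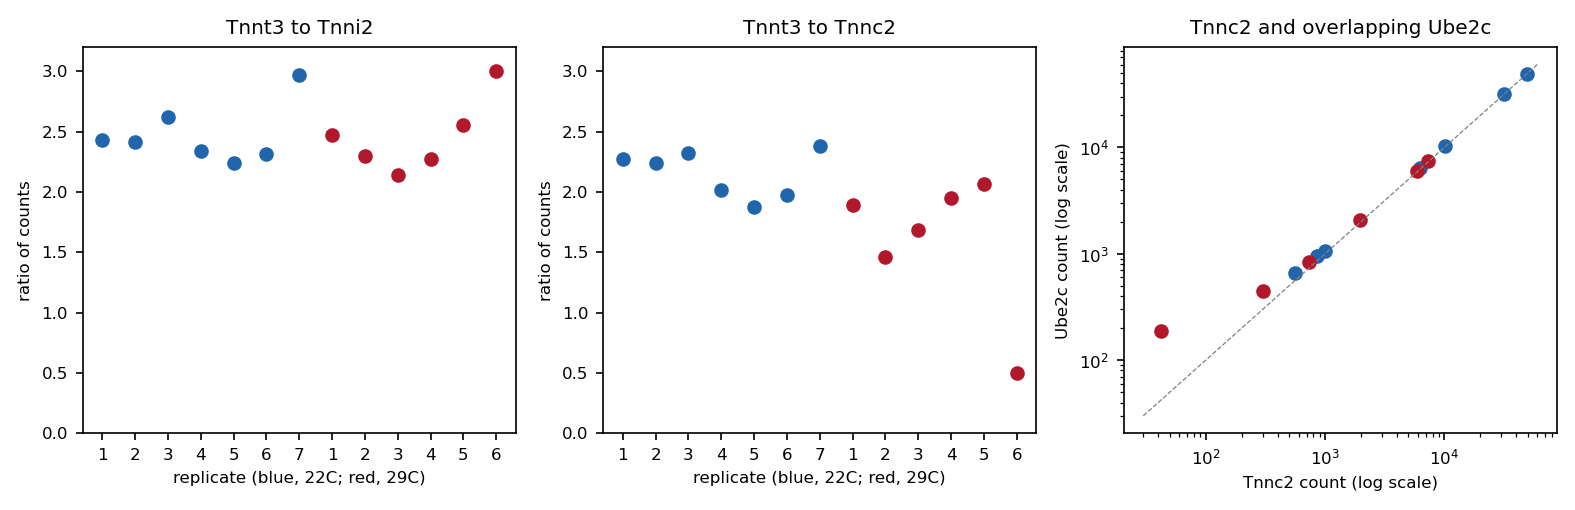
Ratios of counts of Tnnt3 to Tnni2 and of Tnnt3 to Tnnc2 in each mouse (linear axes from 0), and counts of Ube2c against Tnnc2 on log axes with a dashed line at equal counts (blue, 22°C, n = 7, and red, 29°C, n = 6). Tnnt3 to Tnni2 stays between 2.14 and 3, Tnnt3 to Tnnc2 falls to 0.5 in 29°C replicate 6, and in that mouse Ube2c at 188 counts lies above Tnnc2 at 42.

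Across the 13 mice the log2 levels of the fast genes went together with Pearson's r of at least 0.991, and those of the slow genes with r of at least 0.981. Between the classes, the mean log2 level of the fast genes went with that of the slow genes with r = 0.808 (Spearman's rho = 0.874). These values describe the same 13 libraries, which share one preparation per mouse and whatever amount of muscle RNA it held. The fast mean went with the general muscle score with r = 0.994 and the slow mean with r = 0.837. The slow mean was closer to Myh7, the slow and cardiac myosin heavy chain, with r = 0.942.

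The genes most like the fast mean over the 13 libraries, members left out, were Mylpf (r = 0.998), the fast regulatory light chain, Myoz1 (r = 0.998), a Z-disc protein of fast fibers, A930016O22Rik (r = 0.996), Mybpc2 (r = 0.996), the fast myosin-binding protein C, and Trdn (r = 0.995), a protein of the calcium-release triad. Those most like the slow mean were Gm31251 (r = 0.973), Gm29015 (r = 0.97), Myl3 (r = 0.961), Mhrt (r = 0.958) and Myl2 (r = 0.956). Myl3 and Myl2 encode the light chains of slow and cardiac myosin, and Mhrt is a transcript from the other strand of the Myh7 locus, so its reads cannot be told apart from those of its neighbor without strand. For the log2 summed ratio the nearest genes were Wdr66 (r = 0.898), Gm26902 (r = 0.875), Eif3g (r = 0.84), AC166172.5 (r = 0.82) and Zfp454 (r = 0.806), none of them a sarcomere gene by its name.

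Myosins gave another reading of fiber class in the same mice. The counts of the fast heavy chains Myh1, Myh2 and Myh4 to those of Myh7 stood at 30.5, 86.8, 130 and 15.1 in 22°C replicates 1 to 4, 55.4 in replicate 6 and 957 in replicate 7. At 29°C they stood at 128 and 90.5 in replicates 1 and 2. Myh7 had no count in 22°C replicate 5 and 29°C replicates 3 to 6, so that with 3 counts as the floor in each library the ratio was at least 1512-fold in 22°C replicate 5 and at least 1362-, 4136-, 11575- and 19.7-fold in 29°C replicates 3, 4, 5 and 6. As for the troponins, 22°C replicates 1 and 4 had the lowest ratios of their group, but the highest at 22°C was that of replicate 5, whose summed troponin ratio of 76.3 was in the middle, and not that of replicate 7. The fast light chains Mylpf and Myl1 to the slow ones Myl2 and Myl3 gave ratios between 12.1 and 681 at 22°C (median 44.3) and between 54 and 2102 at 29°C (median 177), overlapping between the groups. They too differed from the troponins in single mice, with 681 in 22°C replicate 5 against 191 in 22°C replicate 7, and 120 in 29°C replicate 6, the mouse with the lowest troponin ratio. The last value came from 1437 fast and 12 slow light chain counts. At 29°C Mylpf fell to 0.337 CPM but Myl1 no lower than 60.2 CPM, so in a muscle-poor mouse this ratio rests mostly on Myl1. Whether those Myl1 reads came from muscle was not tested. The log2 light chain ratio went with the log2 troponin ratio with r = 0.642 (rho = 0.692) over the 13 libraries, where both share the depth and muscle content of a library.

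Most other sarcomere genes had fitted differences of similar size to those of the troponins, and edgeR called no member of their lists. Of 10 other thin filament genes, 10 were tested and had a median log2 fold change of 2.80, beside 0.01 over all genes tested. Among them, Acta1, the skeletal actin, averaged 4895 ± 6532 CPM over the 22°C mice (SD, n = 7) and 641 ± 671 CPM over the 29°C mice (SD, n = 6, adjusted p = 0.227, edgeR), and the log2 fold changes of Tpm1, a tropomyosin, and Neb, the thin filament ruler nebulin, were 2.57 (SE 0.96) and 3.47 (SE 1.40). The lowest was that of Tpm3, a tropomyosin, at 0.12 (SE 0.11), which was named after its values were seen. The 10 fast fiber genes other than troponins had a median log2 fold change of 3.27, led in level by Myh4 (3.73, SE 1.62), Atp2a1, the calcium pump of fast fibers (3.41, SE 1.46), and Myl1 (2.49, SE 1.02). The 9 slow fiber genes had a median of 3.24 and ranged widely, from Atp2a2, a calcium pump that many cell types use (0.15, SE 0.15), through Mybpc1 (3.24, SE 1.40) to Myh7 (5.72, SE 1.88). The 12 general muscle genes had a median of 3.16, with Ckm, the muscle creatine kinase, at 3.02 (SE 1.41), Ttn at 3.21 (SE 1.42) and Pygm, the muscle glycogen phosphorylase, at 3.27 (SE 1.30).

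At an unadjusted p below 0.05, 8 of the thin filament genes, 7 fast fiber, 7 slow fiber and 11 general muscle genes passed with edgeR, beside the 10.3% of all genes tested that passed as higher at 22°C. DESeq2 called 7, 6, 4 and 9 of them at an adjusted p below 0.1, beside 5.58% of its genes called higher at 22°C. The summed level of the general muscle genes ran from 292 to 22721 CPM in the 22°C group and from 38 to 1871 CPM in the other. It was highest in the same mice as the fast troponins and lowest in 29°C replicate 6.

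Genes of developing muscle and of muscle regulation differed widely among themselves, with no call by edgeR. Myh8, the perinatal myosin, was between 0.212 and 38.1 CPM at 22°C and between 0.0421 and 7.82 CPM at 29°C (adjusted p = 0.3, edgeR), and Myh3 and Chrng did not pass the filter. Of 11 muscle regulators 8 were tested, with 0.65 as their median log2 fold change and no call by edgeR. At an unadjusted p below 0.05 (edgeR) 3 passed, beside 10.3% of all genes tested that were higher at 22°C. DESeq2 called 3 at an adjusted p below 0.1, beside 5.58% of its genes called higher at 22°C. Mef2c, a partner of the MyoD family, had a log2 fold change of 1.91 (SE 0.63), Sox6, a repressor of slow fiber genes, 0.60 (SE 0.22), and Tead1, a TEAD factor, -0.01 (SE 0.20). Myod1 and Myf6, both of the MyoD family and named after their values were seen, had 2.63 (SE 1.27) and 2.29 (SE 1.27), close to the fast troponins.

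Markers of other tissues varied less in sum than the troponins, but some went with them in single mice, and their part in the troponin values was not tested. Of 6 heart genes 1 passed the filter, Myl4, which averaged 11.4 ± 2.2 CPM over the 22°C mice (SD, n = 7) and 11.7 ± 2.24 CPM over the 29°C mice (SD, n = 6). The 8 smooth muscle genes summed to between 251 and 860 CPM at 22°C and between 357 and 623 CPM at 29°C, highest in the muscle-rich 22°C replicates 7 (860 CPM) and 1 (664 CPM), with Synpo2, Acta2 and Tagln as the most abundant genes, no call by edgeR, and 0.30 as the median log2 fold change. The epidermal genes, with Dsp, Trp63 and Krt5 highest, summed to between 12.5 and 134 CPM at 22°C and between 16.3 and 494 CPM at 29°C. Dsp, a desmosome protein, was between 0.0452 and 71 CPM at 22°C, and no epidermal gene was called (adjusted p of at least 0.309, edgeR).

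Of 8 adipocyte genes, with Cfd, Fabp4 and Pnpla2 highest, 1 was called, Lep, which was lower at 22°C (log2 fold change -0.78, adjusted p = 0.0564, edgeR). The call was lost without 29°C replicate 1 or 2, with the replicate block and with either covariate. It was also lost with no low-count filter, in the libraries with higher totals and at an adjusted p below 0.05. The adipocyte sum was lowest in the muscle-rich 22°C replicates 7 (21470 CPM) and 1 (24501 CPM). The brown and beige fat list had 6 of its 8 genes tested and 3 called higher at 22°C, namely Cidea, Cox8b and Otop1, with log2 fold changes of 2.51, 2.27 and 2.92, beside 0.731% of all genes tested. Ppargc1a, a coactivator of mitochondrial genes and among the 3 most abundant of the list, had 0.87 (SE 0.31) and was not called. Ucp1, with no count in 10 of the 13 libraries, and Zic1 did not pass the filter. Elovl3 at -0.03 (SE 0.92) and Dio2 at 2.17 (SE 0.62) were tested and not called. Ucp1, Zic1, Elovl3 and Dio2 were named after their values were seen. The count of 3 fell to 1 without 29°C replicate 1, 2, 3 or 5, with no low-count filter and at an adjusted p below 0.05. It fell to 0 with the cluster of totals as a covariate or in the libraries with higher totals. The brown and beige sum was highest in the same muscle-rich mice, with 178 CPM in 22°C replicate 1 and 134 CPM in replicate 7, and at most 76.3 CPM in the others. The median log2 fold change of the brown and beige list was 2.22, beside 2.82 for the fast and 4.29 for the slow troponins.

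**Figure D5:**
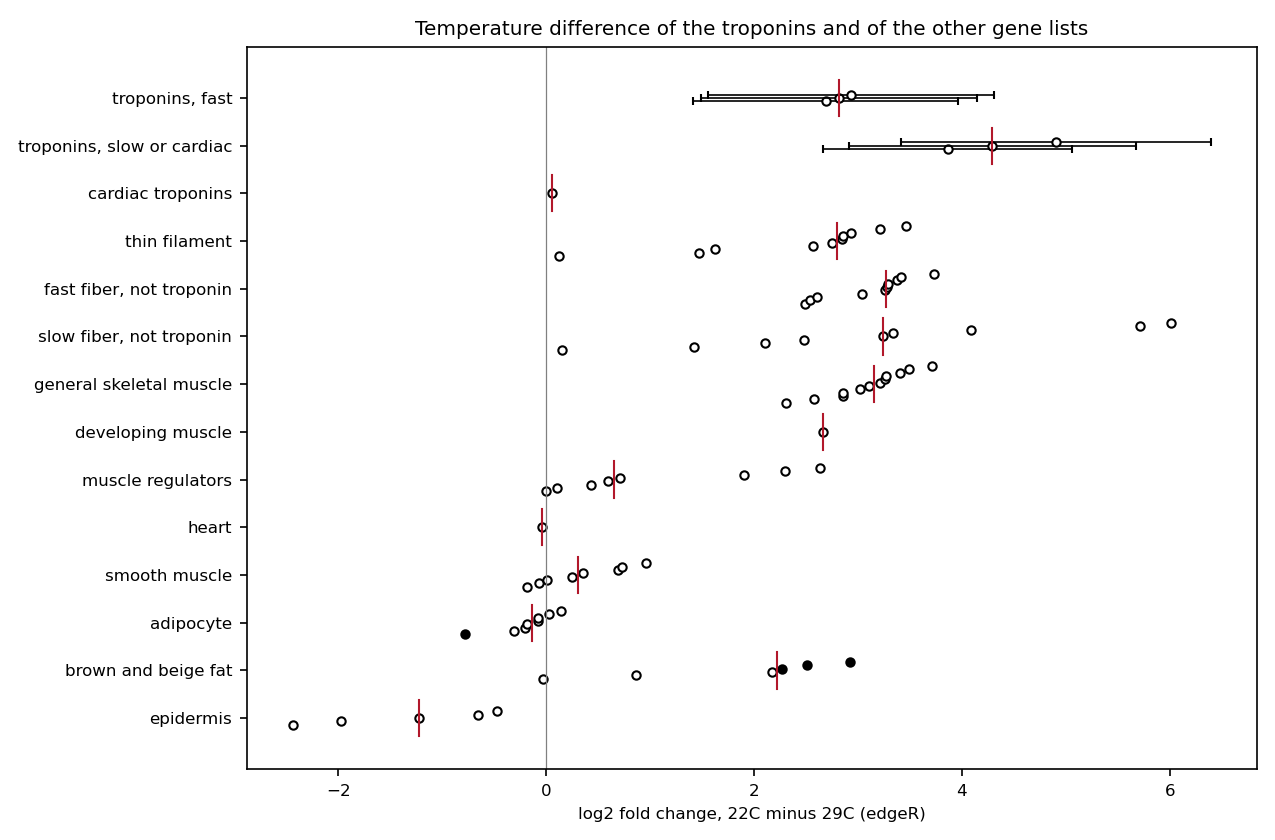
Fitted log2 fold change (22°C minus 29°C, edgeR, 7 and 6 mice) of each tested gene in the troponin classes and the other lists, with the list median as a red line, standard errors as bars for the 6 troponins and filled points for genes with an adjusted p below 0.1. The troponins and the other sarcomere lists lie to the right with no filled point, at list medians between 2.80 and 4.29, while the 4 called genes are in the adipocyte and the brown and beige fat lists.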

How the data were processed

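RNA of gluteal WAT from 13 mice was sequenced, and groups were read from the labels. Per the labels, the processing notes name FastQC, STAR 2.7.5a, featureCounts, DESeq2 and the GRCm39 build, and the study's methods name mm10 for a similar approach in cultured cells. The authors deposited raw counts per gene, and also a DESeq2 table of these genes on a regularized log2 scale. Annotation and strand setting are not given in the sources used here, so counts of overlapping genes are uncertain. Symbols were matched by identifier for 34006 of 34419 genes.

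Counts were tested in R 4.3.3 with edgeR 4.0.16 (TMM scaling, filterByExpr, quasi-likelihood F test, no covariate, Benjamini-Hochberg adjustment over all genes tested, adjusted p below 0.1). DESeq2 1.42.0 and limma 3.58.1 on the deposited log2 values were alternatives. CPM use TMM-scaled library sizes. Ratios are of counts, compared on the log2 scale after adding 0.5, with exact permutation tests at 0.05 and intervals from inverting that test. Intervals of single-library ratios are exact binomial ones and cover counting error only, as does the floor of 3 counts. SE is the log2 fold change divided by the root of F. Methods were tested on simulated counts. No pair of libraries agreed within sampling noise (lowest chi-square per gene 15.5 over 78 pairs). P-values measure the spread between mice.

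Named genes are the 6 members, the 2 cardiac troponins, the 3 most abundant and all called members of each other list, and the 5 genes nearest to each of 3 troponin measures by Pearson's r. The members and lists were chosen with earlier results of these data known. Other settings tried were DESeq2 size factors, no low-count filter, a mean count of at least 10, a robust fit, each library left out in turn, a block for the replicate number, the muscle score or the cluster of totals as a covariate, adjusted p below 0.05, pseudocounts of 1 and 0.1, libraries with at least 10 counts of both genes, and medians. Fits on the libraries with higher totals and DESeq2 without outlier handling were chosen after seeing the data. A further marker list is not reported here.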

Additional observations from a re-analysis of the deposited data

Results flagged for a closer look

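In groups of 6 or 7 mice, a library was singled out where its gap to the nearest of the others was large against the range of its group by Dixon's rule. Of 44 groups of values examined 8 held such a library. The rule is set to give about 1 in 20 by chance for independent, normally spread values. These groups share mice and genes, and CPM are skewed, so an excess over chance is not shown. At 29°C, replicate 1 stood above the rest with 4.22 CPM of Tnnt1 (next 0.9) and 5.45 CPM of Tnnc1 (next 1.04), also on the log2 scale for Tnnc1 at 2.468 (next 0.17). At 22°C, replicate 1 stood above the rest with 96.9 CPM of Tnnt1 (next 31.3) and 97.1 CPM of Tnnc1 (next 38.3). The log2 ratio of Tnnc2 to Tnnc1 was 7.903 in 22°C replicate 7 (next 5.24). In 29°C replicate 6, the log2 ratio of Tnnt3 to Tnnc2 was -0.9831 (next 0.546) and that of Tnni2 to Tnnc2 was -2.503 (next -0.654), beside 42 counts of Tnnc2 and 188 of the overlapping Ube2c in that mouse.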

How the results depend on the processing

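With DESeq2, and with DESeq2 without its outlier handling, 3 of the 6 troponins were called (log2 fold changes of 4.31 for Tnnt1, 4.93 for Tnni1 and 3.87 for Tnnc1), where edgeR called none, and the cause was not tested. With the muscle score as a covariate the fast genes turned to -0.2315 (Tnnt3), -0.254 (Tnni2) and -0.4244 (Tnnc2), the last with an unadjusted p of 0.0104 and an adjusted p of 0.261 (edgeR). The score is built from genes that go with the fast troponins in these libraries. Leaving out each library in turn gave log2 fold changes of 2.179 to 3.492 for Tnnt3, 2.208 to 3.376 for Tnni2, 1.986 to 3.28 for Tnnc2, 2.894 to 5.663 for Tnnt1, 3.695 to 6.053 for Tnni1 and 2.669 to 4.918 for Tnnc1, with between 0 and 1 of the 6 called. Tnni1 was called without 22°C replicate 6 (adjusted p = 0.0976, edgeR). The remaining settings for the 6 fold changes kept the direction and called none. The slow genes were smaller with limma on regularized log2 values (1.82 for Tnnt1, 1.96 for Tnni1, 1.75 for Tnnc1) and with the cluster of totals as a covariate (2.08, 2.21 and 1.83).

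The pair ratios passed no test under any setting tried. Leaving out each library gave differences of -0.7745 to 0.5772 for Tnnt3 to Tnnt1, -1.55 to -0.296 for Tnni2 to Tnni1 and -0.8447 to 0.396 for Tnnc2 to Tnnc1. The lowest values came without 29°C replicate 6. Among the libraries with higher totals, Tnni2 to Tnni1 turned to 0.53 and Tnnc2 to Tnnc1 to 0.927. Tnnt3 to Tnnt1 turned to -1.602 with at least 10 counts of both genes, which leaves 5 mice at 22°C and 2 at 29°C, to -0.4545 with medians and to -0.3396 with the replicate block, which leaves out the unpaired 22°C replicate 7 and gives the same value as the test without that mouse. The replicate numbers were not taken to pair the mice, since no label says so and the correlation of same-numbered deviations was 0.0508 for number 5. It was between 0.348 and 0.513 for the others, and 4 of 6 numbers went best with their own, so pairing is undecided from the data. With the replicate block the count of all genes called moved from 345 to 214 and no troponin was called. The edgeR count was 42 with no low-count filter and 4 with the cluster of totals as a covariate. DESeq2 called 1676 of all genes.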
